A study of Mus musculus with 2 samples.

Results

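The histone acetyltransferase genes Kat2a, Kat2b, Ep300, Crebbp, Kat5, Kat6a, Kat6b, Kat7 and Kat8, together with Kansl1, a scaffold gene of an acetyltransferase complex, were examined for Sap130 in the embryonic mouse brain. These 10 genes of 20953 protein-coding genes were chosen by name, with earlier results of these data known. Their peaks were all those that carried the gene's symbol or an older synonym, or that overlapped the gene body or the 1 kb around its ends, which gave 18 peaks of 16231. Sap130 was mapped by chromatin immunoprecipitation and sequencing (ChIP-seq), in which an antibody enriches the DNA fragments that a protein sits on. The study comprised 1 Sap130 ChIP library (rabbit anti-Sap130 antibody, 2 µg) and 1 input DNA library, both from brain of B6 wildtype mouse embryos at stage E13.5. The labels used here do not give the number or sex of the embryos or whether tissue was pooled. The authors gave a single peak list for the series. Its header names no sample, and it has no height, fold or p-value. There was no replicate, the read depth was unknown, and every value below describes this list alone.

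Histone acetyltransferases transfer acetyl groups from acetyl-CoA to lysines of the histone tails, which loosens chromatin and creates docking sites for bromodomain proteins. Sap130 belongs to the Sin3-HDAC complex, which holds histone deacetylases and takes these acetyl groups off again. Apart from the scaffold gene Kansl1, the genes thus encode enzymes that write the mark which the Sap130 complex removes. The enzymes form 3 families by catalytic domain, namely Gcn5 and Pcaf (Kat2a, Kat2b), p300 and CBP (Ep300, Crebbp), and the MYST enzymes (Kat5, Kat6a, Kat6b, Kat7, Kat8). Of these, Kat8 works in the NSL complex built on Kansl1. In humans, mutations in EP300, CREBBP, KAT6A, KAT6B or KANSL1 cause syndromes with intellectual disability.

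The DNA in front of these gene starts differed widely in composition, and 4 stretches are shown as examples, from the gene earliest in the list (Kat2a), a gene under a broad peak (Ep300), the gene with no peak before its start (Kat7) and a gene with a single peak (Kat8). Each is the RefSeq sequence (GRCm38.p6) upstream of the start on the gene's strand, 5′ to 3′, ending where the annotated gene begins. Capitals mark matches to the motifs described further down. They are Kat2a (chr11:100712486-100712717, minus strand), Ep300 (chr15:81585964-81586208, plus strand), Kat7 (chr11:95310247-95310496, minus strand) and Kat8 (chr7:127912267-127912516, plus strand).
Kat2a: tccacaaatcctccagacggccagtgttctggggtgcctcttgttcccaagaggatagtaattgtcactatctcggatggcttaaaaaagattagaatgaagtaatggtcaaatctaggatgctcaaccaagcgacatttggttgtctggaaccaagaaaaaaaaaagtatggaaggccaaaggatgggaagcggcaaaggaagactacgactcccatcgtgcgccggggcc
Ep300: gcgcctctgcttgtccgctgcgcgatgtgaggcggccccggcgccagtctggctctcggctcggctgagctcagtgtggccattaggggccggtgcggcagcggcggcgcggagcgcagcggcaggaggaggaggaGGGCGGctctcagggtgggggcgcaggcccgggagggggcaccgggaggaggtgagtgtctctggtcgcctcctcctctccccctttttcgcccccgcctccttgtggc
Kat7: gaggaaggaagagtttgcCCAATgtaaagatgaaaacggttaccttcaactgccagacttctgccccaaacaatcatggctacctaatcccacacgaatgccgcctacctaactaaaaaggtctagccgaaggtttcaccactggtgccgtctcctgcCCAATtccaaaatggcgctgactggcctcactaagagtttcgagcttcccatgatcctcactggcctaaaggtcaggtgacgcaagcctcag
Kat8: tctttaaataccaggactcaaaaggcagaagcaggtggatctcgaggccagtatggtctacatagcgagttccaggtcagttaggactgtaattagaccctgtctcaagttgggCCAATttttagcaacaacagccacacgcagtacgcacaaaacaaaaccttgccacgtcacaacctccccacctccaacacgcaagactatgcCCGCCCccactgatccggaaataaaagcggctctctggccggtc

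All 10 genes carried at least 1 promoter-labelled peak, that is, a peak to which the authors' table assigned the gene (100%, exact 95% interval 69.2 to 100, counting error only). Across all protein-coding genes the share was 49.2%. All labels in the table joined a peak centre to a start at most 1 kb away. With any peak over the 1 kb around either gene end accepted, whatever its label, the count was again 10 of 10 (52.0% of all protein-coding genes). Kat5 counted here only through a peak labelled with its neighbour Rnaseh2c, and Kansl1 only through an unlabelled peak (place 4464). With a peak centre within 500 bp of the labelled start required, 7 of the 10 kept a label (44.0% of all), and among the first 8115 peaks 9 of the 10 had one (33.0% of all). Of the 18 peaks, 15 were labelled with the gene itself, 2 had no label (at Kat6b and Kansl1), and 1 was labelled Rnaseh2c, the gene that follows Kat5. Among marker genes, 12 of 16 brain markers had a promoter-labelled peak, against 0 of 14 blood, immune and liver markers. The count of 0 allows at most 21.4%. Within 500 bp of the start, 8 of the 16 brain markers kept a label (44.0% of all protein-coding genes). Klf1, a gene of the second marker list, had an unlabelled peak within 1 kb of a gene end. These counts cannot check the tissue label, because labels fell on 49.2% of all protein-coding genes and the list holds no expression values.

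The rule found few peaks along the genes away from their starts, although several of the genes are long. Gene length had a median of 74.8 kb for the 10 genes, against 26.2 kb for all labelled protein-coding genes. Of the 18 peaks, 16 were centred within 1300 bp of the labelled start of their gene. For the 15 labelled peaks this was fixed in advance, because labels joined only centres at most 1 kb from a start. In the whole list 12656 of 16231 peaks carried a label. The unlabelled Kat6b peak, centred 1257.5 bp inside the gene, lay just within the cut-off. Outside it were the Rnaseh2c peak and the unlabelled Kansl1 peak, which was centred 468 bp inside another annotated Kansl1 start. Of the 10 genes, 9 had a labelled peak that contained the start base itself (90%, compared with 81.6% of all labelled genes), and Kat7 was the exception. The rule's margin of 1 kb left out an unlabelled peak of 584 bp that ended 1028 bp before Ep300, while it took in the Rnaseh2c peak, 389 bp from Kat5.

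**Figure D1:**
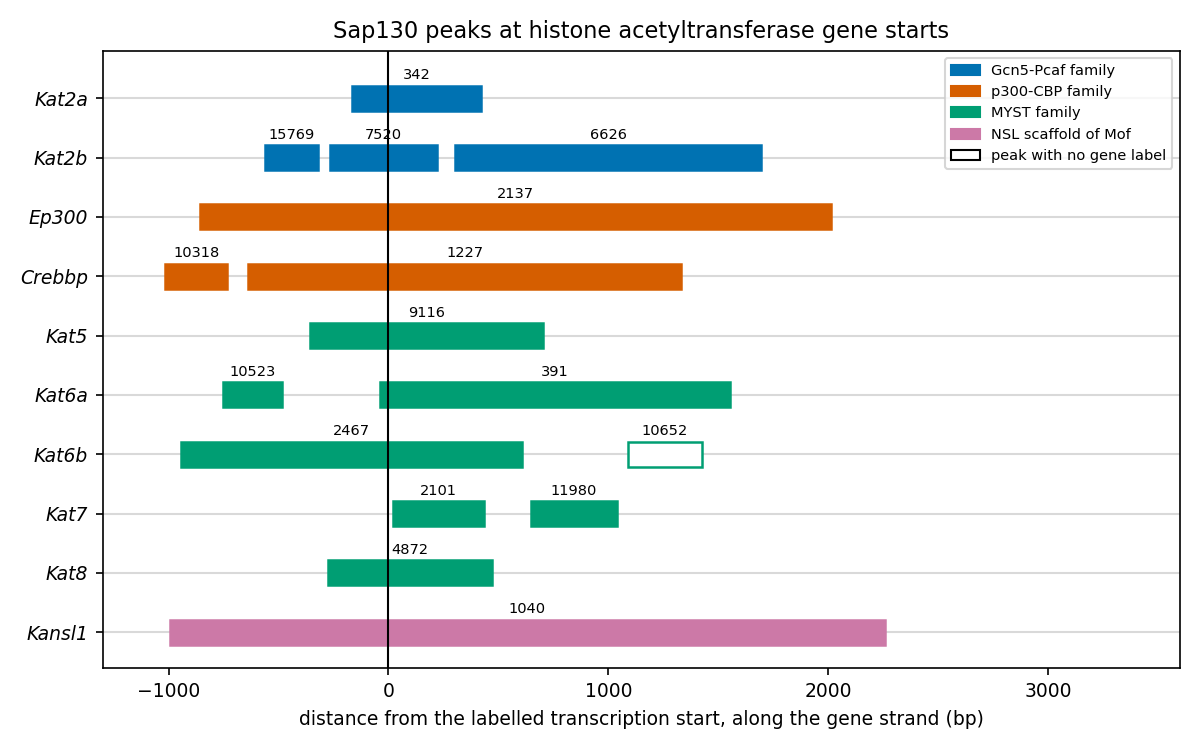
Peaks of the 10 genes are drawn as bars by distance from the labelled transcription start, in bp along the gene's strand, with colours for the enzyme families and the place of each peak in the list printed above it (open bar, peak with no gene label). Bars run over the start in 9 genes, Kat7 starts 22 bp inside the gene, and the Rnaseh2c peak near Kat5 and the unlabelled Kansl1 peak lie outside the range drawn.

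Kat2a and Kat2b encode Gcn5 and Pcaf, the alternative catalytic subunits of the coactivator complexes SAGA and ATAC, and their peaks had little in common. The table numbers its peaks from 1, and the place of a peak is its number. What the order reflects is not stated in the labels or the table. Kat2a had a single peak of 587 bp at place 342 (chromosome 11, 100712047 to 100712634). It reached from 167 bp before the start to 420 bp after it, and its centre was in the coding part of exon 1. Kat2b had 3 labelled peaks, at places 6626, 7520 and 15769, with widths of 1391, 491 and 238 bp. They were separated by gaps of 81 and 54 bp only and together spanned 2255 bp. The widest (chromosome 17, 53567275 to 53568666) was centred 999.5 bp inside the gene in intron 1, and the 491 bp peak covered the start. Kat2a was therefore the earliest of the 10 genes in the list and next to the narrowest, while Kat2b was next to the last in the list. At least 3 labelled peaks were found at 1.59% of all labelled genes.

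Ep300 and Crebbp encode the paralogous coactivators p300 and CBP, which acetylate histones at enhancers and promoters. Both had a broad peak over the start. The Ep300 peak was 2873 bp wide (chromosome 15, 81585355 to 81588228, place 2137) and wider than 99.3% of the earliest promoter peaks of all labelled genes. It extended 859 bp before the start and 2014 bp into the gene, with its centre in intron 1. The main Crebbp peak was 1970 bp wide (chromosome 16, 4212071 to 4214041, place 1227), wider than 95.5%, and reached from 637 bp before the start to 1333 bp after it. A second Crebbp peak of 284 bp (place 10318) lay 96 bp further upstream. In both genes more of the main peak lay inside the gene than before it.

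Kat6a and Kat6b encode Moz and Morf, which acetylate histone H3 in complexes with Brpf proteins and act in stem and progenitor cells. Their main peaks were almost equal in width, 1592 bp at Kat6a and 1552 bp at Kat6b, but were placed differently around the start. The Kat6a peak (chromosome 8, 22859499 to 22861091, place 391) began 40 bp before the start and ran 1552 bp into the gene. The Kat6b peak (chromosome 14, 21498827 to 21500379, place 2467) ran from 943 bp before the start to 609 bp after it. Kat6b was the only gene of the 10 whose earliest peak was centred upstream of its labelled start, by 167 bp, as was the case for 15.2% of all labelled genes. The annotated gene begins further upstream, at 21499216, so this centre still lay inside it. Each gene had a small further peak on the other side: 271 bp wide and 444 bp upstream of the main peak at Kat6a (place 10523), and 337 bp wide, unlabelled and 480 bp downstream at Kat6b (place 10652).

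The other MYST genes had narrower peaks. Kat7 encodes Hbo1, an enzyme linked to DNA replication origins and to histone H3 acetylation. Its 2 labelled peaks were 414 bp (chromosome 11, 95309810 to 95310224, place 2101) and 392 bp wide (place 11980). Both lay in intron 1 by their centres, and the first began 22 bp inside the gene, so that none of the 250 bases before the start, shown above, was under a peak. Among the 500 labelled genes nearest to Kat7 in the list, none had a narrower peak (0%). Kat8 encodes Mof, the enzyme for acetylation of histone H4 in the MSL and NSL complexes. Its single peak of 746 bp (chromosome 7, 127912242 to 127912988, place 4872) covered the start and was wider than 41.3% of the earliest promoter peaks. Kat5 encodes Tip60, the catalytic subunit of a complex that acts in DNA repair and histone exchange. Its peak of 1063 bp (chromosome 19, 5609389 to 5610452) stood latest of the 10, at place 9116, and was centred in the coding part of exon 1.

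Kansl1 had the widest peak of the 10 genes. It measured 3253 bp (chromosome 11, 104440034 to 104443287, place 1040) and exceeded the earliest promoter peak of 99.7% of labelled genes. It ran from 996 bp before the labelled start to 2257 bp after it. The second peak, of 854 bp (104468548 to 104469402, place 4464), carried no gene label and lay 25.3 kb upstream of the first, inside the annotated gene and next to the outer RefSeq start at 104469443. Both annotated start regions of Kansl1 thus had a peak. The enzyme of the same complex, Kat8, stood at a later place with a peak narrower than that of Kansl1.

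By the earliest labelled peak of each gene, the medians of the 10 genes were earlier and wider than those of all labelled genes, with a broad spread among the 10. The median place of their earliest labelled peak was 2119 (range 342 to 9116, interval of the median, between the second and the ninth of the 10 ordered values, 391 to 6626), compared with 5852.5 for all 10310 labelled protein-coding genes. The median width was 1471.5 bp (range 414 to 3253 bp, interval 587 to 2873 bp), compared with 841 bp. Both intervals contain the value of all labelled genes. Over every labelled peak, the 15 peaks of the 10 genes had a median place of 4872, compared with 6843.5 for all labelled peaks, and a median width of 746 bp, compared with 761 bp, so the greater width did not hold under that count. Of the 10 genes, 7 were among the first 2500 peaks (70%, interval 34.8 to 93.3, against 21.9% of labelled genes). Among the first 1000 peaks there were 2 (20%, interval 2.52 to 55.6, against 8.88%). An earliest peak wider than 1500 bp was present at 5 (50%, interval 18.7 to 81.3, against 13.3%). Kat6b, at place 2467 with 1552 bp, lay just inside the cut-offs of 2500 and 1500 bp. In the list as a whole, earlier peaks were wider (rho = -0.724 by Spearman over all peaks of the list, a description since peaks are not replicates). Set beside the 500 labelled genes nearest in the list, Kansl1, Ep300 and Crebbp were wider than 98.8%, 98.6% and 92.0% of their neighbours. Kat2b, Kat5, Kat6b and Kat6a were wider than 86.6%, 80.8%, 76.2% and 74.8%, Kat8 than 27.8%, Kat2a than 2.6% and Kat7 than 0%. These are descriptions of a list chosen with earlier results in view and were not tested.

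**Figure D2:**
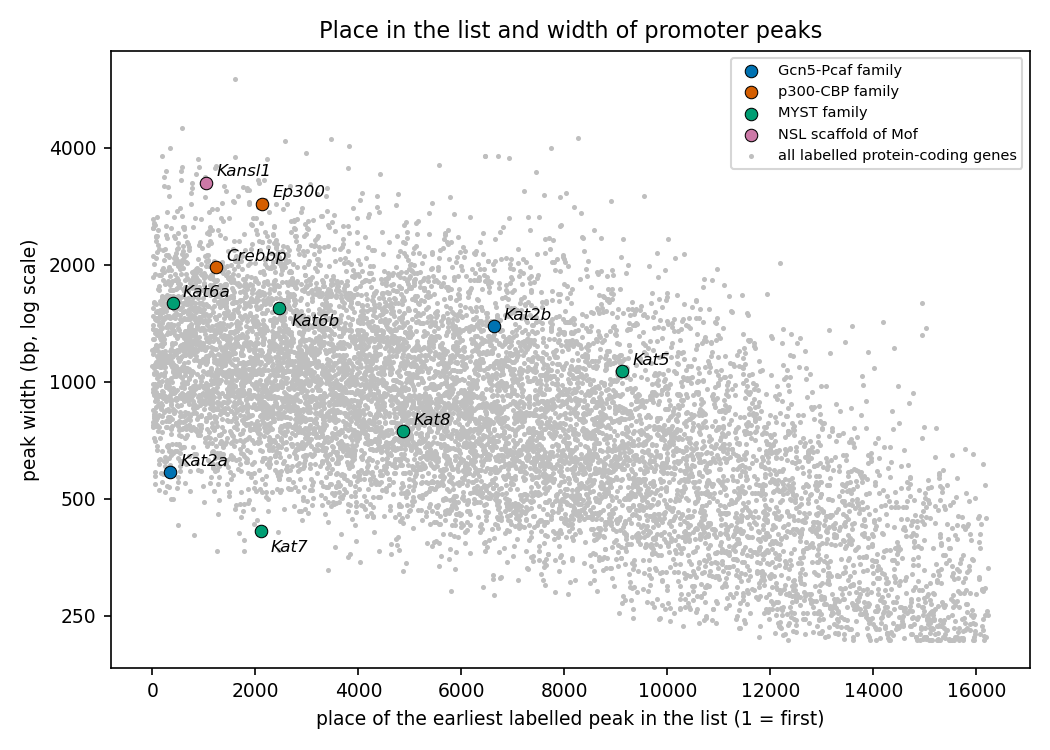
Each grey point is a labelled protein-coding gene, with the place of its earliest labelled peak on the x axis and the width of that peak in bp on a log y axis, and coloured points are the 10 genes by family. Kansl1, Ep300 and Crebbp lie along the upper edge of the cloud, Kat2a and Kat7 along the lower edge, and Kat5 and Kat2b to the right.

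Several of the genes had more than 1 peak. At least 2 labelled peaks were present at 4 of the 10 (Kat2b, Crebbp, Kat6a and Kat7; 40%, interval 12.2 to 73.8). The shares were 8.03% of all protein-coding genes and 16.3% of labelled ones, and the interval contains the latter. Counting every peak of the rule, 7 of the 10 had at least 2 (70%, interval 34.8 to 93.3), compared with 18.9% of all protein-coding genes and 34.5% of labelled ones. Kat5 was among the 7 only through the Rnaseh2c peak. The rule also searches a longer stretch at longer genes, and the 10 genes were longer (median 74.8 kb, against 26.2 kb for labelled genes). These differences were not tested. The 5 further labelled peaks were small and late, with widths of 238 to 491 bp and places from 7520 to 15769. How far adjoining stretches of enrichment were merged depends on settings of the peak caller, which no source used here gives. Of the earliest peaks of the 10 genes, 6 were centred in intron 1 of the model (43.4% of all labelled genes), 3 in the coding part of exon 1 (17.2%), 1 upstream (15.2%) and none in the 5′ UTR portion of that exon (21.5%). Over all 15 labelled peaks, the median centre was 173.5 bp downstream of the start, compared with 196.5 bp for all labelled peaks, and 66.7% were centred downstream, compared with 77.3%. With the earliest peak per gene alone the order turned, at 288.5 bp compared with 215 bp, so the direction depends on which peaks are counted.

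Promoter sequence was compared in windows of 300 bp, from 250 bp before to 50 bp after the start. RefSeq windows were matched for 9 of the 10 genes (not Kat6a) and for 16783 protein-coding genes. The observed over expected CpG ratio, which is near 1 where CpG has not been lost to methylation and mutation, had a median of 0.783 in the 9 genes (range 0.582 to 1.02). It was 0.81 for genes with a labelled peak and 0.252 for genes without one. The median of the 9 genes lay between the quartiles of labelled genes, 0.671 and 0.936. GC content had a median of 57.0% in the 9 genes, compared with 62.7% for genes with a labelled peak and 50.3% for genes without one. The quartiles of labelled genes were 57.0% and 69.0%. Crebbp had 82.0%, Kat6b 78.3%, Kansl1 75.7% and Ep300 72.3%. Kat5 had 57.0%, Kat2a 54.3%, Kat7 and Kat8 53.0% each and Kat2b 47.0%. The 4 windows with the highest GC content belonged to the genes with the 3 widest peaks and to Kat6b, a pattern seen in these 9 genes after the values were known and not tested.

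**Figure D3:**
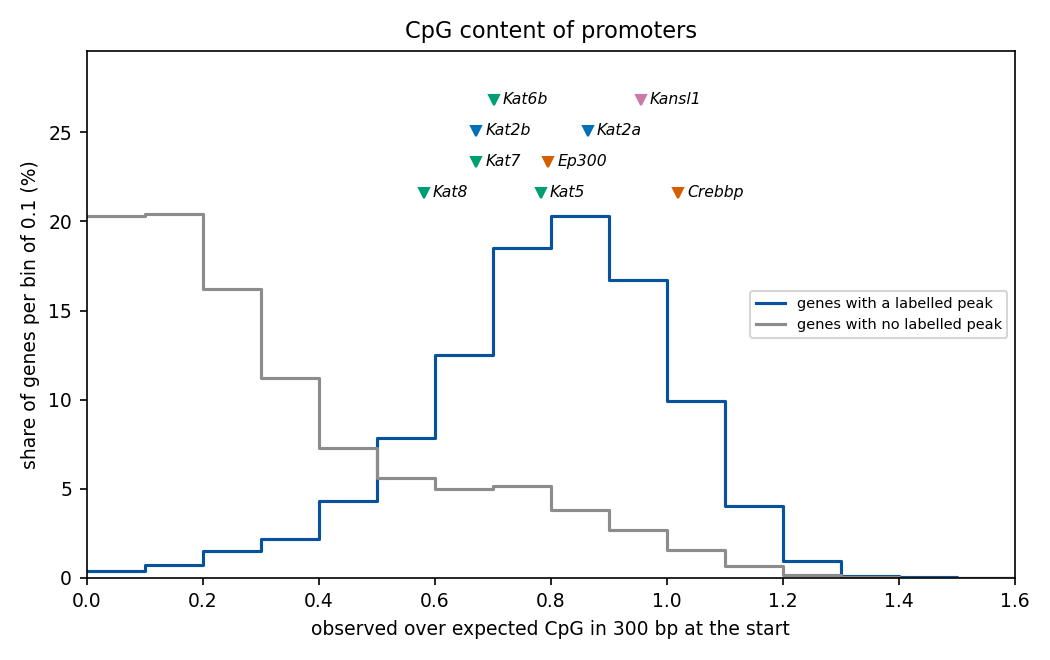
Triangles mark the observed over expected CpG ratio of 9 of the 10 genes in a 300 bp window at the start (x axis), above step lines with the share of genes per bin of 0.1 (y axis, in %) for genes with a labelled peak and genes with none, the last bin also holding any higher ratio. The 9 genes run from 0.582 (Kat8) to 1.02 (Crebbp), within the range of labelled genes.

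A total of 8 short motifs were searched on both strands of the windows. The GC-box GGGCGG, bound by SP and KLF factors, was found in 5 of the 9 windows (Ep300, Crebbp, Kat6b, Kat8 and Kansl1), compared with 71.6% of labelled genes and 48.7% of all genes. Kat6b had 8 matches. The CCAAT-box CCAAT, the NFY site, was found in 4 (Kat2b, Kat5, Kat7 and Kat8; 38.9% of labelled genes and 39.2% of all). The ETS motif CCGGAAG was found in 3 (Kat5, Kat7 and Kat8; 19.7% of labelled genes and 12.6% of all), in each case within the first 50 bases of the transcript. The E-box CACGTG, to which Myc, Max and the Sin3-recruiting Mxd proteins bind, was found at Kat5 only (10.8% of labelled genes and 8.10% of all). No match in the 9 windows was found for the NRF1 core GCGCATGC (6.37% of labelled genes and 3.79% of all), the YY1 core AAGATGGC (5.06% and 3.37%), the CRE TGACGTCA (3.60% and 2.37%) or the TATA-box TATAAA (5.73% and 13.0%). The E-box and the CRE read the same on both strands, and GC-box matches can overlap each other.

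Short stretches around matches are shown to place them relative to the start, each 30 bases long on the gene's strand of GRCm38.p6, with motif letters in capitals. Positions count back from -1, the base before the start. They are the E-box of Kat5 at -186 (chr19:5610263-5610292, minus strand), the CCAAT-box of Kat2b at -70 on the reverse strand (chr17:53566889-53566918, plus strand), a pair of overlapping GC-boxes of Crebbp at -25 and -21 (chr16:4213408-4213437, minus strand), the GC-box of Kat6b nearest to its start at -29 (chr14:21499729-21499758, plus strand) and that of Kansl1 at -122 (chr11:104442396-104442425, minus strand).
Kat5: cccggtgggcgtCACGTGacagactcggcg
Kat2b: acaaagaggaggATTGGccgctgacgggta
Crebbp: gcggccggGGGCGGGCGGtgagcgctgcgg
Kat6b: gggagcggggctGGGCGGcgctgcctcggg
Kansl1: ggcggcgcgccgGGGCGGagcggcccgccg
All 5 stretches were under a labelled Sap130 peak, since the whole 250 bases before the start were covered at these genes. Coverage was also complete at Ep300 and Kat8, 66.8% at Kat2a and 0% at Kat7. A match describes letters only and was not tested as a binding site.

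Partners of the acetyltransferases also carried Sap130 at most of their promoters. Over 4 lists of complex partners, 55 of 62 distinct genes had a promoter-labelled peak (88.7%, interval 78.1 to 95.3), compared with 49.2% of all protein-coding genes. The lists were chosen with earlier results of these data known. The interval therefore covers counting error only, and the difference was not tested. Among partners of Gcn5 and Pcaf, 26 of 27 were labelled, led by Wdr5 (place 91), Zzz3 (246) and Taf5l (299). The exception was Tada3, a SAGA subunit gene, with a 1330 bp peak labelled Arpc4 at a gene end. Here and below, a peak at a gene end is one that overlapped the 1 kb on either side of it. Among NSL and MSL partners of Mof, 11 of 12 were labelled, led by Wdr5, Kansl2 (place 655) and Msl2 (place 744, 3058 bp). The exception was Ogt, the O-GlcNAc transferase gene, with an unlabelled peak of 3436 bp at a gene end. Among partners of Moz, Morf and Hbo1, 8 of 9 were labelled, led by Meaf6 (place 2302), Brd1 (3475) and Ing5 (3617), and Jade3 was the exception, with an unlabelled peak of 1092 bp at a gene end.

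Partners of Tip60 had the lowest share of the 4 lists, at 13 of 17 (76.5%, interval 50.1 to 93.2). Mbtd1 (place 594, 2495 bp), Actl6a (place 1527) and Ep400 (place 1957) were earliest. Brd8, Epc1, Morf4l1 and Mrgbp had no label. Near their gene ends, Brd8 had a 1890 bp peak labelled Kif20a (place 41), Epc1 an unlabelled peak of 3026 bp and Morf4l1 an unlabelled peak of 1572 bp. For Mrgbp the only peak was inside the gene, away from its ends. The intervals of the 4 lists overlap, and the lists share Wdr5, Trrap and Meaf6.

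Other genes of the acetylation cycle gave similar shares, and the labelled peaks of the deacetylase genes stood later in the list. All 11 other histone acetyltransferase genes were labelled, led by Gtf3c4 (place 351), Naa40 (400) and Kat14 (1478). Among acetyl-lysine readers, the bromodomain and YEATS proteins that bind the mark, 10 of 11 were labelled, with a median width of 1711.5 bp. Cecr2 (place 102) and Brd3 (366) were earliest, and Brd9 was the exception, with a peak labelled Trip13 at a gene end. All 5 genes of acetyl-CoA supply were labelled, with Acly (place 1143), the citrate lyase, earliest. Of 11 zinc-dependent histone deacetylase genes, 8 were labelled (72.7%, interval 39.0 to 94.0), led by Hdac5 (place 2111), Hdac2 (3049) and Hdac10 (7941), and Hdac3, Hdac4 and Hdac9 were not. Hdac3 had a 1961 bp peak labelled Rell2 (place 6953) at a gene end, and Hdac4 and Hdac9 had 2 peaks each inside the gene only. Hdac10 had a further peak labelled Tubgcp6 (place 1084) at a gene end. The median place of the deacetylase peaks was 8528.5, against 2119 for the 10 genes and 5852.5 for all labelled genes. Among the first 8115 peaks, 9 of the 10 genes were labelled and 4 of the 11 deacetylase genes (36.4%). The share of all protein-coding genes there was 33.0%, near that of the deacetylase genes. These differences were not tested.

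**Figure D4:**
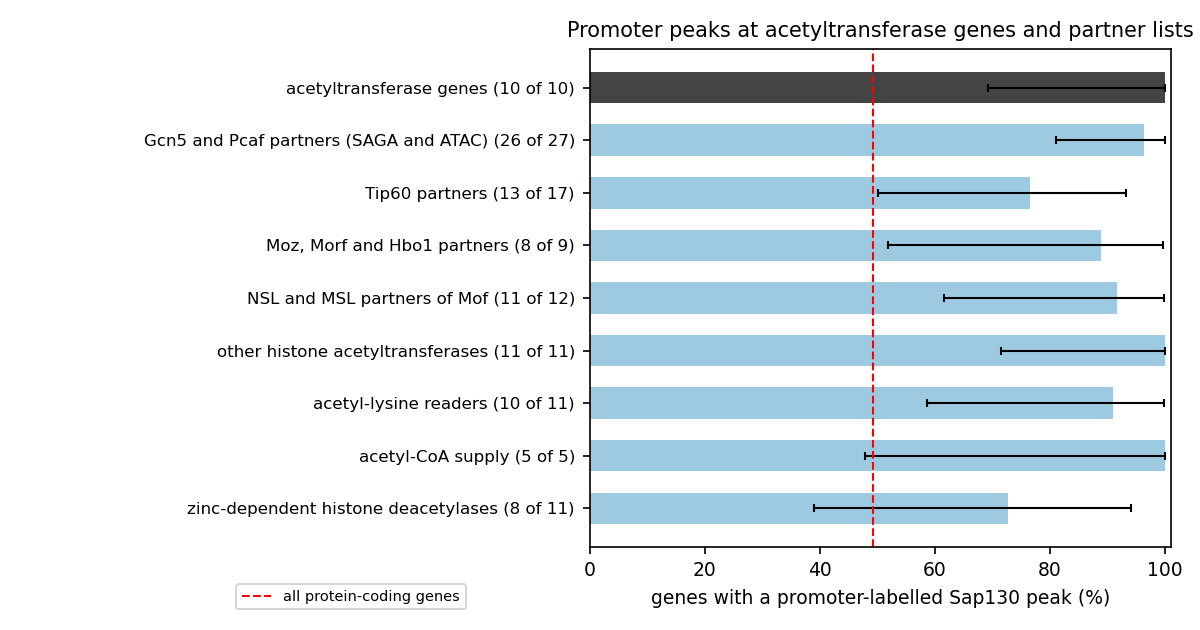
Bars show the share of genes with a promoter-labelled peak (x axis, in %) for the 10 acetyltransferase genes and for 8 lists of partners and related genes, with counts in the row names, exact 95% binomial intervals as error bars and all protein-coding genes as the dashed line at 49.2%. All bars exceed the line, from 72.7% for the deacetylase genes to 100%, and the intervals of the acetyl-CoA and deacetylase lists reach below it.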

How the data were processed

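The submitters' processing notes name Bowtie 1.1.2, MACS2 2.1.0.20140616 and the genome build GRCm38 (mm10). Settings, peak threshold and the rule for joining genes to peaks are not given in the labels or the table. The deposited table gives, per peak, a running number, chromosome, start and end, and for 12656 peaks a gene with its transcript model. The table at hand gives no counts or signal, so depth is unknown and no interval covers it. Peak coordinates are printed as deposited, and width is end minus start. Both bounds of the transcript models count from 0 (all 317 single-exon coding models are divisible by 3 only so), and starts were raised by 1 base.

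Labels were joined to RefSeq genes of GRCm38.p6 on the same chromosome, 12503 through their transcript, 134 through symbols or synonyms, with 19 unmatched. In 27 labels a date stood in place of the symbol, and these were matched by accession. The background was every protein-coding gene of the nuclear chromosomes other than Y that has a curated (NM) transcript. The earliest labelled peak in the list stood for a gene. Partner genes named are the 3 earliest of each list and up to 4 without a label, except that 1 gene the rule would name is not reported here. The 10 genes, lists and motifs were chosen with earlier results of these data known, so no test over genes was run, and 1 library of each kind allows none over samples. Shares carry exact (Clopper-Pearson) 95% intervals, and a share of 0 also a limit of 3 counts. The overlap, motif and exon functions were tested on simulated data. Python 3.11.15, pandas 2.3.3, numpy 2.4.6, scipy 1.17.1 and matplotlib 3.10.9 were used.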

Additional observations from a re-analysis of the deposited data

How the results depend on the processing

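Of 40 alternative settings over 14 results, 39 kept counts within 1.5 times, or medians within the order-statistic interval over the 10 genes. The intervals for place (391 to 6626) and width (587 to 2873 bp) are wide and contain the values of all labelled genes. A median can therefore stay inside and still lose its difference from all labelled genes. The setting outside these limits was the count of labelled deacetylase genes, 8 in all peaks and 4 among the first 8115. That change follows from leaving out the later peaks. With labels accepted only within 500 bp, 7 of the 10 acetyltransferase genes kept one (44.0% of all protein-coding genes did): Ep300, Kat6a and Kansl1 have peaks centred 577.5, 756 and 630.5 bp inside the gene, and those peaks contain the start. Among the first 8115 peaks, 9 of the 10 were labelled (33.0% of all). With all labelled peaks in place of the earliest, the median place was 4872 and the median width 746 bp, since small further peaks then count. All labelled peaks of the list had medians of 6843.5 and 761 bp, so the greater width of the 10 genes did not hold. The peaks of the rule numbered 14 with the gene body alone and 20 with 5 kb around it. Motif matches per gene and motif numbered 13 on both strands and 10 on the forward strand. A stricter peak threshold needs a height or q-value, which the table at hand does not give, and was not run. No paired analysis was possible because the series holds a single ChIP library and a single input.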
